A study of Mus musculus with 8 samples.

Results

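The first hour after tamoxifen was compared with untreated cells in cultured primary keratinocytes of the mouse, which form most of the epidermis. The members are 5 of the 8 arrays of the study, chosen by their titles: 1 array each at 20, 40 and 60 min after tamoxifen, and 2 untreated arrays. The remaining 3 arrays, at 120, 180 and 240 min, entered the estimate of the spread when the times were pooled and are shown for reference. They did not enter the fit of a straight line through the hour, except where stated. All cells carried a retrovirus with no insert, the untreated ones included, so no introduced protein distinguished the groups. The labels give neither the dose of tamoxifen nor the strain, age or sex of the mice, nor the vector's backbone. Nothing in them tells whether each array is a culture of its own, so p-values reflect only how these arrays scatter, which may be technical. One description, given to every sample, mentions tamoxifen even for the untreated arrays, and here the titles decided the group. No array of cells handled at the same times without tamoxifen was analysed here, so tamoxifen, handling and time cannot be told apart.

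Tamoxifen binds the estrogen receptor and is also used to switch on proteins fused to that receptor's hormone-binding part, for which cells with an empty vector serve as the control. Keratinocytes answer a change of medium, a growth factor or stress within minutes, by transcribing immediate early genes such as Fos, Jun and Egr1. Slower programmes follow, such as those of ATF4 and CHOP (Ddit3) in amino acid stress, of YAP and SRF in changes of cell shape and attachment, and of NF-kB in inflammation. Because messenger RNAs differ in how fast they decay, a transcript that is short-lived can also fall within an hour.

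Signals were taken as log2(intensity + 16) for 9294 genes above a brightness limit of 7.04, with the brightest probe set standing for each gene. All differences and folds are of these values, and the added 16 shrinks them for dim genes. Median intensities of the 8 arrays lay between 192 and 198.2. The 11 keratinocyte markers on the array were all above the limit, and their summed intensity was 80380 and 81800 on the untreated arrays and between 81580 and 82590 in the first hour. The untreated arrays stood apart in cell cycle genes: the mean signal of 31 genes of G2 and M phase was 9.66 in replicate 1 and 8.91 in replicate 2, with 9.14, 9.47 and 9.34 at 20, 40 and 60 min. The difference between the 3' and 5' probe sets of Actb, a sign of RNA integrity, was 0.20 at 60 min and between 0.26 and 0.28 on every other array. The number of arrays limits the precision, and a single time rests on 1 array with no error of its own.

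The distance of the arrays from the untreated ones grew over the hour, but for most genes it stayed near the gap between the untreated arrays themselves. The median absolute difference between the untreated arrays was 0.082 (log2). The corresponding distance from untreated replicate 1 was 0.059 at 20 min, 0.068 at 40 min and 0.091 at 60 min. From untreated replicate 2 it was 0.091, 0.119 and 0.125. Genes lying beyond both untreated arrays by more than the gap between those numbered 2658 at 20 min (28.6%), 3357 at 40 min (36.1%) and 4042 at 60 min (43.5%). An array that was merely a further untreated replicate would also meet this rule in many genes, so these are not counts of changed genes. Few of the distances were large. At least 0.5 from the nearer untreated array were 6 genes at 20 min, 15 at 40 min and 72 at 60 min, of which 31 were higher and 41 lower. The untreated arrays differed from each other by at least 0.5 in 97 genes and by at least 2-fold in 6.

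When the 3 times were pooled into a window and set against the untreated arrays (limma, all 8 arrays in 3 windows, 5 residual degrees of freedom), no gene passed a Benjamini-Hochberg adjusted p of 0.05 (0% of 9294). No adjusted p was below 0.331. Without adjustment 1288 genes had p under 0.05, 620 higher and 668 lower. With the mean signal of the G2 and M phase genes as a covariate 579 passed, 287 higher and 292 lower, and with that of the S phase genes 13. A pooled window takes no account of the order of the times, and a gene that climbs through the hour adds its climb to the spread. Adm, which led the window, differed by 1.02 ± 0.17 (SE, log2).

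A straight line through the hour (limma, 5 arrays at 0, 20, 40 and 60 min, 3 residual degrees of freedom) asked instead which genes moved steadily. It passed 376 genes (4.05%), 213 with a rising slope (2.29%) and 163 with a falling one (1.75%), with a smallest adjusted p of 0.0057. Unadjusted p under 0.05 was reached by 2216 genes, 1145 rising and 1071 falling. The count leans on the later arrays of the hour and on which untreated array is used. Leaving out an array also costs residual degrees of freedom, and without the 60 min array the line ends at 40 min. Lost calls therefore do not tell how far the changes rest on that array. Without the 60 min array no gene passed (smallest adjusted p 0.339, with 1267 genes at an unadjusted p under 0.05), and without the 40 min array 2 passed, Ccn2 and Ccnb1ip1. Without the 20 min array 55 passed, without untreated replicate 1 1078 and without untreated replicate 2 244. With the 3 later arrays kept in the fit as a group of their own, so that their spread counted too, 22 passed.

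The genes of the trend also differed between the untreated arrays. Of the 213 with a rising slope, 192 (90.1%) were lower in untreated replicate 2 than in replicate 1, against 42.5% of all genes. Of the 163 with a falling slope, 145 (89.0%) were higher in replicate 2, against 57.5% of all genes. So replicate 1 lay nearer to the first-hour arrays for most of these genes, on the side toward which they moved. The part of this difference in the trend was not tested.

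A gene was said to build up when its values at 20, 40 and 60 min all lay beyond both untreated arrays, moved further out at each step, and ended farther from the nearer untreated array than those lay from each other. This count carries no test. It was met by 1099 genes (11.8%), 606 upward (6.52%) and 493 downward (5.30%). Of the 376 genes of the trend, 323 also built up and 53 did not, a share fixed in large part by the use of the same arrays. A distance of at least 0.5 at 60 min was reached by 66 of the genes that built up, 29 upward and 37 downward. Adm upward, and Stfa3 and Ccnb1ip1 downward, ended at least 2-fold from both untreated arrays.

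**Figure D1:**
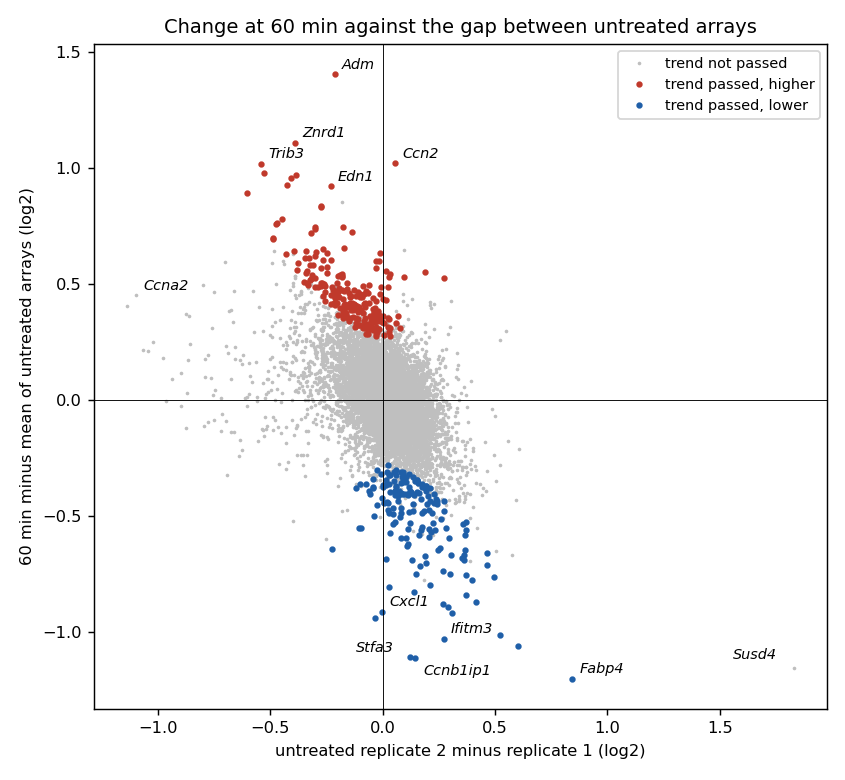
Difference at 60 min from the mean of the untreated arrays (vertical axis, log2) against the difference between the untreated arrays (horizontal axis, log2) for each of 9294 genes. Coloured points passed the trend at an adjusted p under 0.05 (213 red, higher; 163 blue, lower). Adm and Ccn2 lie high, Ccn2 with a small untreated gap and Adm with a larger one. Susd4, at 8.18 and 10.02 on the untreated arrays, and Ccna2, at 10.28 and 9.18, lie far out horizontally and did not pass.

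Among the genes that built up upward, Adm went furthest. Adm encodes adrenomedullin, a secreted vasodilator peptide that is also a known target of hypoxia signalling. Its signal was 8.35 and 8.14 on the untreated arrays, 8.97 at 20 min, 9.16 at 40 min and 9.65 at 60 min, a 2.65-fold difference from the untreated mean at 60 min. Every array of the hour lay above both untreated arrays, and the first step was already larger than the untreated gap. The slope was 1.38 ± 0.13 per hour (SE, adjusted p = 0.0057), and 1.41 with an adjusted p of 0.0756 without the 40 min array.

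Ccn2 encodes connective tissue growth factor, a matrix-associated protein and a standard target of YAP. Its signal was 8.85 and 8.90 untreated, then 9.27, 9.45 and 9.90, a 2.03-fold difference at 60 min. The untreated arrays were 0.05 apart, so all 3 times stood clear of them. The slope was 0.98 ± 0.08 per hour (adjusted p = 0.0057), and it still passed without the 40 min array (adjusted p = 0.0489).

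Znrd1, a subunit of RNA polymerase I, read 7.92 and 7.53 untreated, then 8.002, 8.52 and 8.84, with a slope of 1.14 ± 0.13 (adjusted p = 0.0120). At 20 min it was barely above untreated replicate 1. Edn1, the precursor of the peptide endothelin 1, which keratinocytes secrete toward melanocytes, read 7.73 and 7.497, then 7.98, 8.22 and 8.53, with a slope of 0.92 ± 0.09 (adjusted p = 0.0076). Its 3 values were roughly evenly stepped and all above both untreated arrays.

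The promoters of the leading upward genes that the RefSeq table holds are given here as the 250 bases before the annotated start. These genes were chosen by the build-up rule, which fixes that they rose at every step, and shared control was not tested. They come from RefSeq, assembly GRCm38.p6, at chr7:110627407-110627656 (plus strand) for Adm, chr17:36958526-36958775 (minus strand, the first of 2 listed starts) for Znrd1 and chr13:42301226-42301475 (plus strand) for Edn1. Capitals mark a match to any of the 8 motifs that are listed with their shares further on.
Adm: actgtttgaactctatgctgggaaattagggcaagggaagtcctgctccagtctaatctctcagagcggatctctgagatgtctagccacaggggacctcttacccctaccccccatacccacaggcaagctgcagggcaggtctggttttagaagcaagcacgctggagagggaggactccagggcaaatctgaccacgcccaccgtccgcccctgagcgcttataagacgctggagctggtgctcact
Znrd1: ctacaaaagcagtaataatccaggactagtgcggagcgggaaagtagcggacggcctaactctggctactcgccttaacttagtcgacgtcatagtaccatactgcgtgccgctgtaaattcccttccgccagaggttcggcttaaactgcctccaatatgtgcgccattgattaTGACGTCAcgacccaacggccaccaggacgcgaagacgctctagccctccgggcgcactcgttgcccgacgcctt
Edn1: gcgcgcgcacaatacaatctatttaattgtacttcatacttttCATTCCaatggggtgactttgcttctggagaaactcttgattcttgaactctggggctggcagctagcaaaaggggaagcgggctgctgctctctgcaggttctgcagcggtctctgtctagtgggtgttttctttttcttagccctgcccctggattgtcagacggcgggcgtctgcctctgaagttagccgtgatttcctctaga
The capitals in Znrd1 are TGACGTCA, the cyclic AMP response element, 75 bases before the start. Those in Edn1 are GGAATG, the core that TEAD factors bind, read on the opposite strand and 207 bases before the start. In the Adm window none of the letters searched occurs, which says nothing of which factors bind there.

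The other genes among the 12 that went furthest upward were of several kinds. Csrp1, a LIM protein of the actin cytoskeleton, read 10.49 and 10.09 untreated and 10.69, 10.88 and 11.25 in the hour (slope 0.94 ± 0.14, adjusted p = 0.0181). Trim16, a ubiquitin ligase, went from 8.84 and 8.56 to 9.02, 9.14 and 9.53 (slope 0.79 ± 0.11, adjusted p = 0.0162). Ncbp3, a nuclear cap-binding protein, went from 8.75 and 8.48 to 8.89, 9.10 and 9.45 (slope 0.81 ± 0.10, adjusted p = 0.0146). In each of these, untreated replicate 1 was the higher of the untreated arrays, and the 20 min value lay closer to it than the later values did. Zscan26, a zinc finger protein, had a slope of 0.99 ± 0.13 (adjusted p = 0.0146), and the phosphatase Mdp1 one of 1.01 ± 0.17 (adjusted p = 0.0255). Trib3, Chac1 and Ddit3, which complete the 12, belong to the ATF4 programme described with its list.

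**Figure D2:**
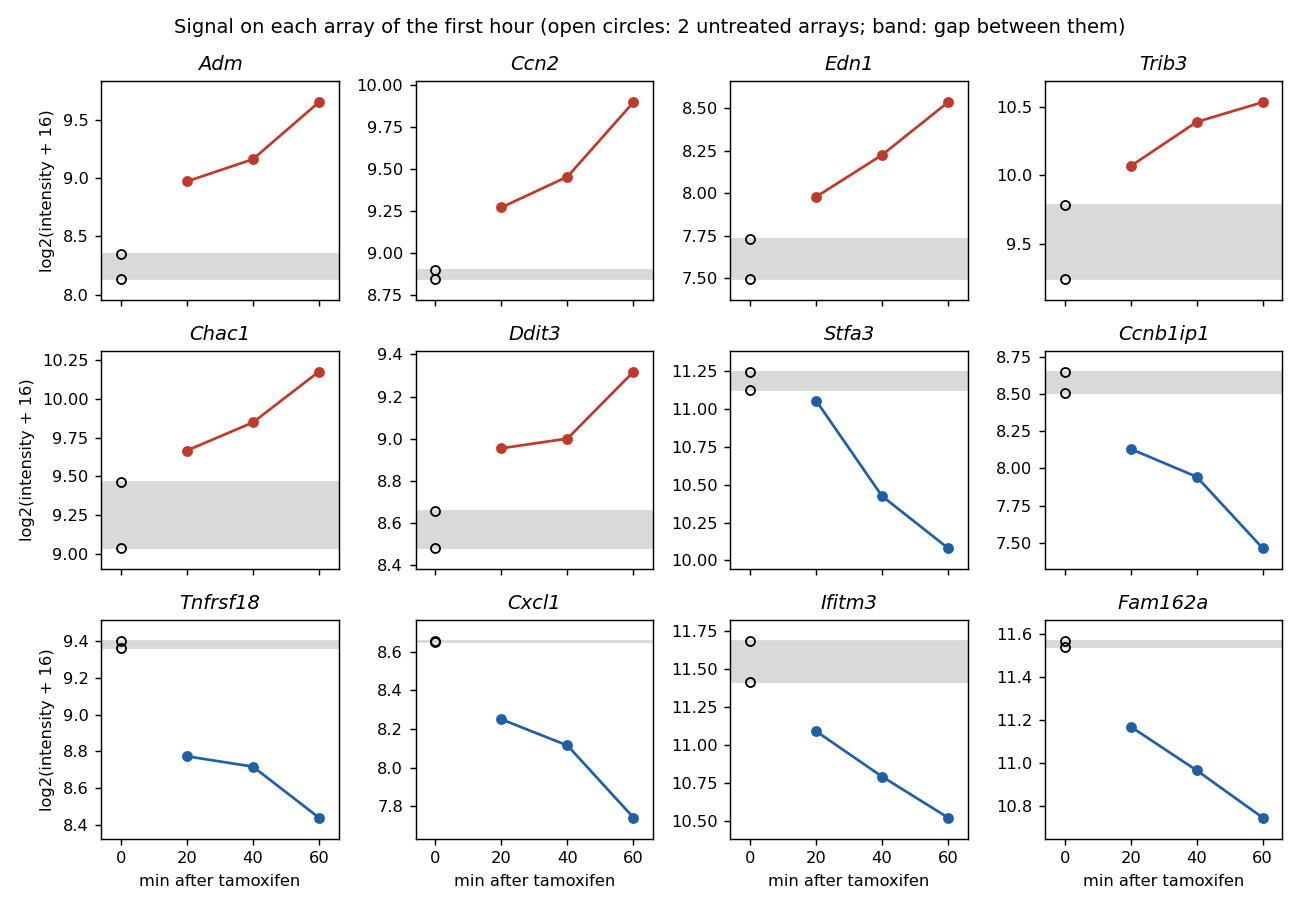
Signal, as log2(intensity + 16), of 12 genes that built up, against minutes after tamoxifen: open circles are the 2 untreated arrays, the grey band is the gap between them, and filled points joined by a line are the 20, 40 and 60 min arrays (red, upward; blue, downward). Each vertical axis has its own range and does not start at 0. Every time point lies outside the band, from 8.97 to 9.65 for Adm and from 8.25 to 7.74 for Cxcl1.

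Downward, the furthest gene was Stfa3, which encodes a stefin, an inhibitor of cysteine proteases. Its signal was 11.13 and 11.25 untreated, 11.06 at 20 min, 10.42 at 40 min and 10.08 at 60 min, with a slope of -1.14 ± 0.11 per hour (adjusted p = 0.0076). At 20 min it was still close to the untreated arrays, and most of the fall came between 20 and 40 min. Of the 4 stefins and cystatins above the brightness limit, Stfa3 alone passed: Cstb, Cst3 and Cst6 had 60 min differences of -0.22, -0.21 and 0.34.

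Ccnb1ip1, a ubiquitin ligase known for its role in meiotic crossing over, read 8.51 and 8.65 untreated, then 8.13, 7.94 and 7.46, a level 2.16-fold lower at 60 min (slope -1.07 ± 0.09, adjusted p = 0.0057). Fam162a, a mitochondrial protein induced by hypoxia, read 11.54 and 11.57, then 11.17, 10.96 and 10.75, a level 1.75-fold lower (slope -0.81 ± 0.07, adjusted p = 0.0057). Both had small untreated gaps, and all 3 times lay below them. Without the 40 min array Ccnb1ip1 still passed and Fam162a did not.

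Cxcl1, a chemokine that attracts neutrophils, read 8.65 on both untreated arrays, then 8.25, 8.12 and 7.74 (slope -0.88 ± 0.08, adjusted p = 0.0057). Cxcl5, a related chemokine, read 8.10 and 8.24, then 7.82, 7.71 and 7.34 (slope -0.79 ± 0.09, adjusted p = 0.0102). In both, the step from 20 to 40 min was the smallest of the hour. Tnfrsf18, the receptor GITR of the TNF receptor family, read 9.40 and 9.36, then 8.77, 8.72 and 8.44 (slope -0.92 ± 0.12, adjusted p = 0.0146). Ifitm3, a membrane protein that restricts virus entry, read 11.41 and 11.69, then 11.09, 10.79 and 10.52 (slope -1.04 ± 0.11, adjusted p = 0.0076). Tnfrsf18 had covered most of its distance by 20 min, whereas Ifitm3 moved in nearly even steps. The remaining genes of the 12 were Bex1, Spon2, Pdrg1, Fcgbp and Aldh1a3, the last an enzyme of retinoic acid synthesis, with slopes from -1.04 to -0.85 and adjusted p from 0.0135 to 0.0325.

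Outside those lists of 12, the smallest adjusted p of the trend named a few more genes. Gadd45a, a growth arrest and DNA damage gene, went from 8.02 and 8.04 to 8.35, 8.47 and 8.59 (slope 0.57 ± 0.08, adjusted p = 0.0160). Stbd1, a glycogen-binding protein, Zfp622 and Uqcc3, an assembly factor of respiratory complex III, also rose, with slopes of 0.73, 0.57 and 0.52. Stom (stomatin, a membrane protein), Dcxr (a carbonyl reductase), Ces2g (a carboxylesterase) and Vsnl1 (a calcium sensor) fell, with slopes of -0.72, -0.70, -0.79 and -0.72. At the threshold itself, Papss2 and Tmem158 lay just inside with adjusted p of 0.0499, and Vps72 and Dnase1l3 just outside with 0.0501 and 0.0503.

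Further probe sets for the same genes gave a second reading on the same arrays. Among genes that built up by at least 0.5, 10 upward genes had 14 further probe sets above the brightness limit, of which 9 lay above both untreated arrays at all 3 times and 5 built up. The 12 downward genes had 21, of which 19 lay below both and 14 built up. Agreement was lower over all genes that built up: 92 of 445 further probe sets (20.7%) built up upward with 27 on the opposite side at all times, and 70 of 267 (26.2%) downward with 4 on the opposite side. For genes of the trend, 36 of 130 further probe sets built up upward and 46 of 98 downward. Over all further probe sets, 16.7% lay above and 17.45% below both untreated arrays at all times, 6.10% built up upward and 4.92% downward, and over all 14538 probe sets above the limit 6.37% and 5.17%. Further probe sets differed from the untreated mean at 60 min by 0.97 for Csrp1, 0.97 for Trib3 and 0.59 for Trim16. Those of Pdrg1 differed by -0.71 and -0.92, and the 4 of Stom by -0.33 to -0.70. Mdp1 was a disagreement, with -0.02 and 0.69 on its further probe sets, and so was Aldh1a3, with -0.57 and -0.13.

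Of 26 lists of pathway genes, chosen with earlier results of these data known, the ATF4 and CHOP amino acid stress list held the most rising members. Of its 23 genes 8 rose and none fell, where 2.29% of all genes rose. Of the same 23, 8 built up upward, where 6.52% of all genes did. Its median difference from the untreated mean was 0.20 at 20 min, 0.23 at 40 min and 0.26 at 60 min, against -0.01, -0.03 and 0.00 over all genes. Between the untreated arrays the list's median was 0.18 lower in replicate 2, a gap of similar size.

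Atf4 itself, the transcription factor translated when amino acids run short, read 11.42 and 11.10 untreated, then 11.49, 11.62 and 11.78 (slope 0.52 ± 0.11, adjusted p = 0.0432). Ddit3, the factor CHOP, read 8.66 and 8.48, then 8.96, 9.001 and 9.32 (slope 0.71 ± 0.10, adjusted p = 0.0162). All first-hour values of both genes lay above both untreated arrays, though the 20 min value of Atf4 did so by less than 0.1. Atf5, a related factor, read 10.83 and 10.53, then 11.14, 11.22 and 11.42 (adjusted p = 0.0266). Among targets, Trib3, a pseudokinase that feeds back on ATF4 and CHOP, read 9.78 and 9.24, then 10.07, 10.39 and 10.53 (slope 1.07 ± 0.19, adjusted p = 0.0277). Chac1, an enzyme that degrades glutathione, read 9.46 and 9.04, then 9.67, 9.85 and 10.18 (slope 0.91 ± 0.14, adjusted p = 0.0213). Both targets rose at every step, from untreated arrays that were 0.54 and 0.42 apart. The alanyl-tRNA synthetase Aars, the amino acid transporter subunit Slc3a2 and Stbd1 were the other members that rose, with 60 min differences of 0.49, 0.40 and 0.72. A further probe set of Aars differed by 0.57, and those of Atf4 by only 0.13 and 0.11.

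Chaperones of the endoplasmic reticulum, which other arms of the unfolded protein response induce, did not share this direction. Of 17 genes none rose and 3 fell (1.75% of all genes fell), and 8 built up downward (5.30% of all genes). Calr, the calcium-binding chaperone calreticulin, read 11.66 and 11.68, then 11.58, 11.43 and 11.33 (slope -0.35 ± 0.06, adjusted p = 0.0290). Its further probe sets differed by -0.32 and -0.38 at 60 min. The disulfide isomerases Pdia4 and Pdia6 fell too, with slopes of -0.51 and -0.32 (adjusted p = 0.0247 and 0.0388). The list's median moved from -0.05 at 20 min to -0.14 and -0.20, while the untreated arrays differed in it by 0.03. Of 15 heat shock chaperones none passed in either direction.

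Of 31 ribosome biogenesis genes 3 rose, none fell and 28 did not pass, where 2.29% of all genes rose, and 12 built up upward, where 6.52% of all genes did. The nucleolar proteins Noc2l (slope 0.48 ± 0.07, adjusted p = 0.0176), Wdr43 (0.37 ± 0.07, adjusted p = 0.0350) and Nop58 (0.35 ± 0.08, adjusted p = 0.0462) passed. Noc2l read 9.85 and 9.78 untreated, then 10.03, 10.18 and 10.29. The list's median difference was 0.08, 0.12 and 0.14 at 20, 40 and 60 min, and the untreated arrays differed in it by 0.06, with replicate 2 the lower.

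Among 22 targets of YAP and SRF 4 rose and none fell, and 3 built up, where 2.29% of all genes rose and 6.52% built up upward. Those that rose were Ccn2, Edn1, the adhesion protein Zyx (9.99 and 9.73, then 10.14, 10.31 and 10.50, slope 0.64 ± 0.10, adjusted p = 0.0212) and F3. F3, tissue factor, read 10.02 and 9.64, then 10.15, 10.44 and 10.42 (slope 0.66 ± 0.14, adjusted p = 0.0460), and so reached its highest value by 40 min. The list's median was 0.00 at 20 min, 0.08 at 40 min and 0.13 at 60 min. In the list of 20 cell junction genes 3 rose and 1 fell, where 2.29% of all genes rose and 1.75% fell. The tight junction genes Cldn4, Cldn7 and Ocln rose, with 60 min differences of 0.50, 0.64 and 0.55. Gja1, a gap junction gene, fell, with a difference of -0.50.

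NF-kB and chemokine genes held the most falling members beside p53 targets. Of 15 above the brightness limit, of 23 on the array, 4 fell and none rose, where 1.75% of all genes fell: Cxcl1, Cxcl5, the adhesion molecule Icam1 and the cytokine Il1a. Icam1 read 8.76 and 8.87, then 8.54, 8.39 and 8.19 (slope -0.63 ± 0.07, adjusted p = 0.0120). The list's median was -0.10, -0.20 and -0.22 at the 3 times. That median depends on which dim genes are kept: at 60 min it was -0.13 with no brightness limit and -0.40 with the dimmest 50% of probe sets left out. Tnfaip2, another member, built up upward, to 8.08 from 7.84 and 7.86, and did not pass (adjusted p = 0.149), and its further probe set did not build up.

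Summed markers of leukocytes were lower in the first hour than on both untreated arrays, beside these genes. So were those of fibroblasts, adipocytes, muscle and erythroid cells, and the drop was thus not particular to leukocytes. The summed intensity of the 15 leukocyte and Langerhans cell markers was 1896 to 2026 untreated and 1781 to 1857 in the first hour. Of those 15 markers 7 were above the brightness limit and none passed, and Ptprc, Cd74, Cd52, Cd207 and Lyz2 were among those below it. The sums include such dim markers. With no brightness limit, more genes in general lay below both untreated arrays at all 3 times (2287) than above both (1691). Fewer cells of a type, less RNA per cell and a shift of dim signals cannot be told apart in a culture. Fibroblast markers summed to 4325 to 4586 untreated and 4010 to 4047 in the first hour, with 13 of 15 above the limit and none passing. Adipocyte markers summed to 1339 to 2037 and 998.5 to 1157, and of the 3 above the limit Fabp4 fell: it read 9.79 and 10.63, then 9.50, 9.28 and 9.01 (slope -1.22 ± 0.27, adjusted p = 0.0462). Its untreated gap of 0.84 was larger than its distance below the nearer untreated array. Lpl, another of the 3, went the other way: it lay above both untreated arrays at all 3 times, with a window difference of 0.18. It did not pass, and its further probe set did not share that position. The part of other cell types in the falling genes was not tested. Muscle markers summed to 1162 to 1211 untreated and 1104 to 1152 in the first hour, and erythroid markers to 366.7 to 386.6 and 347.6 to 364.3. For melanocyte and endothelial markers the ranges overlapped. Of 7 melanocyte markers, 1 endothelial, 5 muscle and 2 erythroid markers above the limit none passed.

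Targets of p53 moved in both directions. Of 15 genes 4 fell, Btg2, Ccng1, Mdm2 and Trp53inp1, and 1 rose, Gadd45a, where 1.75% of all genes fell and 2.29% rose. Mdm2, the ubiquitin ligase of p53, read 10.93 and 11.02, then 10.93, 10.68 and 10.62 (slope -0.38 ± 0.07, adjusted p = 0.0368). The probe sets disagreed on the time of its fall: a further one read 9.93 and 10.004, then 9.68, 9.59 and 9.57, and so was below both untreated arrays by 20 min. Ccng1 read 12.02 and 12.08, then 12.04, 11.82 and 11.64 (adjusted p = 0.0338). Its further probe sets disagreed: 1 differed by -0.05, -0.25 and -0.28 and built up, and 1 by -0.02, -0.18 and -0.11 and did not. The further probe set of Btg2 differed by -0.03, -0.16 and -0.25 and did not build up either. With array weights none of the 4 falling targets passed. In the hypoxia and glycolysis list of 21 genes, Adm and Ndrg1 rose and Fam162a fell, where 2.29% of all genes rose and 1.75% fell. The list's median was -0.13 at 60 min, and Slc2a1, the glucose transporter, had a 60 min difference of -0.32 that did not pass (adjusted p = 0.0698).

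Of 26 immediate early regulators, which are read first after most stimuli, no slope rose as reported and 3 fell, where 1.75% of all genes fell. With quantile normalization or median centring 1 rose, and with either cell cycle covariate 2. A straight line can miss a gene that peaks and returns within the hour, so these counts do not tell whether such peaks occurred. The list's mean was 9.40 and 9.44 untreated, then 9.49, 9.39 and 9.41. At all 3 times 5 members lay above both untreated arrays (16.1% of all genes) and 2 below (20.1%). In each direction 2 built up (6.52% of all genes upward, 5.30% downward). The members whose slope fell were Ier3, Btg2, an inhibitor of proliferation, and Cebpd, a transcription factor. Ier3 read 12.08 and 12.21, then 11.98, 11.74 and 11.70 (slope -0.48 ± 0.08, adjusted p = 0.0253). Egr2, with a slope of 0.30 ± 0.07, built up without passing (adjusted p = 0.0549). Mcl1 also built up upward without passing, but its further probe sets disagreed. They differed by -0.22, 0.14, -0.20, -0.15 and -0.25 at 60 min, and those at -0.22 and -0.20 built up downward. Jun had its highest value at 40 min, at 10.01 against 9.64 and 9.48 untreated (adjusted p = 0.0581). Of 12 genes of ERK feedback Dusp10 rose (slope 0.51 ± 0.10, adjusted p = 0.0350) and Ier3 fell. Among 13 TGF-beta and BMP targets Id2 rose and Ltbp1 fell, where 2.29% of all genes rose and 1.75% fell.

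Lists of keratinocyte state and hormone response held few calls. Sprr2f, a cornified envelope precursor, fell among 17 small proline-rich and cornified envelope genes (slope -0.37 ± 0.06, adjusted p = 0.0261). Loricrin (Lor) and Lce1a1 of that list had 60 min differences of -0.57 and -0.77 and did not pass (adjusted p = 0.0568 and 0.0524). Ifitm3 was the member that fell among 12 interferon-linked genes, and Tnfrsf18 among 11 of the TNF receptor family. Over all genes 1.75% fell. The interferon-linked list had 18 genes on the array, of which 12 were above the brightness limit. None passed among 17 basal keratins and integrins, 11 suprabasal and wound keratins, 7 xenobiotic and estrogen response genes, 8 EGF receptor ligands, 15 genes of sterol synthesis, 16 of NRF2 and glutathione defence, 11 of the Myc and Max network, 14 reference genes, 31 of G2 and M phase and 29 of S phase. The cell cycle lists depended on the untreated arrays: without untreated replicate 1, 18 of 31 G2 and M phase genes and 9 of 29 S phase genes rose, without untreated replicate 2 none passed, and with the S phase covariate 9 of 31 G2 and M phase genes fell. The smallest adjusted p in the xenobiotic and estrogen list was 0.0839, for Cyp2b10, which had a 60 min difference of -0.28. That list had 14 genes on the array, of which only the 7 above the brightness limit were tested. Directions of the list medians named here were the same with quantile normalization and with median centring. No list kept a call of the trend without the 60 min array, and without the 40 min array the one call left in the lists described was Ccn2. With the 3 later arrays in the fit, 1 of the 8 calls of the ATF4 list, 1 of 4 in the NF-kB list and 2 of 4 among YAP and SRF targets passed, and 0 among endoplasmic reticulum chaperones, ribosome biogenesis, cell junction and p53 genes.

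**Figure D3:**
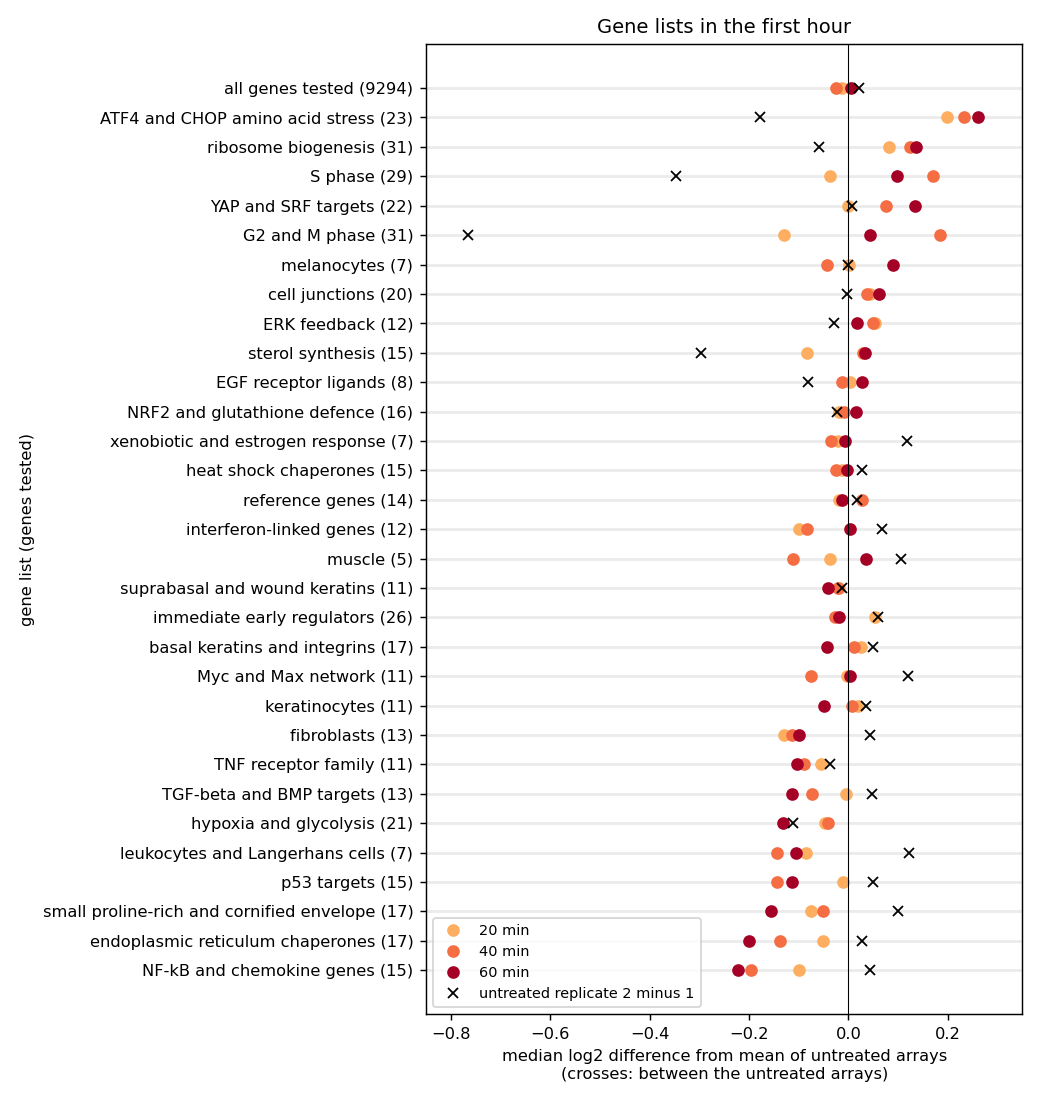
Median difference of each gene list from the mean of the untreated arrays (horizontal axis, log2) at 20, 40 and 60 min (filled circles), with the median difference between the untreated arrays as a cross. Number of genes tested is in brackets, lists with fewer than 5 are left out, and all 9294 genes are on the top line. The ATF4 list lies at 0.20 to 0.26 and the NF-kB list at -0.10 to -0.22, while the cross of the G2 and M phase list, at -0.77, is farther from 0 than any circle.

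**Figure D4:**
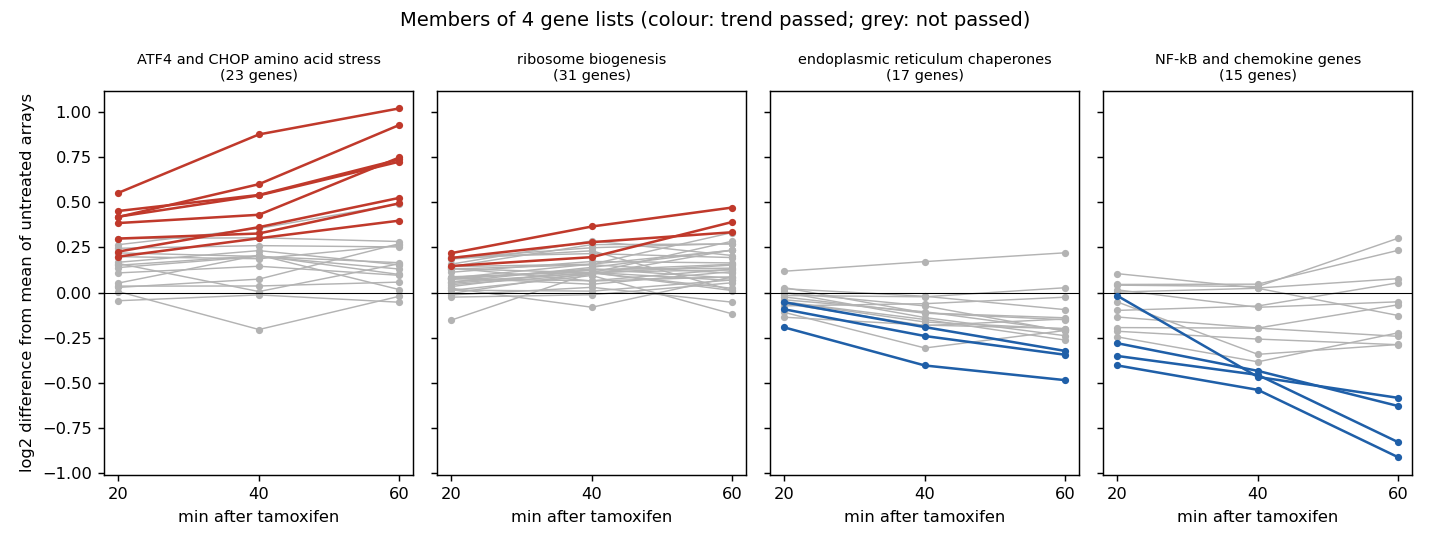
Difference of each member from the mean of the untreated arrays (vertical axis, log2) at 20, 40 and 60 min, in 4 lists. Coloured lines passed the trend (red, rising; blue, falling) and grey lines did not. In the ATF4 list 8 of 23 lines are red, in ribosome biogenesis 3 of 31, and in the endoplasmic reticulum chaperones 3 of 17 and the NF-kB list 4 of 15 are blue.

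Not every gene on one side of both untreated arrays through the hour was farthest from them at 60 min. There were 3366 such genes, 1498 above (16.1%) and 1868 below (20.1%), a split that median centring of the arrays turned to 2020 above and 1378 below. Of the 3366, 443 were farthest at 20 min, 1006 at 40 min and 1917 at 60 min. Ptgs2, the inducible cyclooxygenase, read 9.9996 and 10.003 untreated, then 10.38, 10.25 and 10.23, and so was highest at 20 min. Msh3 and Rad1, of DNA repair and its checkpoint, were lowest at 20 min, at 7.29 and 8.09 against untreated values from 7.80 and 8.57 upward. At 40 min, F3, Jun and Sirt1, a deacetylase, were highest, and Zfp36l1, which destabilises messenger RNAs, was lowest, at 10.58 against 10.94 and 11.18. Of these, F3 and Zfp36l1 passed the trend (adjusted p = 0.0460 and 0.0437), and Ptgs2, Msh3, Rad1, Jun and Sirt1 did not. Each of these shapes rests on 1 array per time, and further probe sets did not share those of Ptgs2, Msh3 and Zfp36l1. The further probe set of Ptgs2 was highest at 60 min (8.11, 8.08 and 8.22), that of Zfp36l1 was lowest at 60 min and built up (differences of -0.13, -0.38 and -0.55), and that of Msh3 above the brightness limit differed by -0.01, 0.02 and -0.03. The further probe set of Jun was highest at 40 min as well, with a difference of 0.25.

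Later arrays, which share the untreated arrays with the first hour, did not hold the levels of 60 min. The median difference of the 213 rising genes was 0.18, 0.29 and 0.45 at 20, 40 and 60 min and -0.04, 0.01 and 0.20 at 120, 180 and 240 min. That of the 163 falling genes was -0.18, -0.32 and -0.45, then 0.13, 0.02 and -0.20. At 240 min, 196 of the rising genes (92.0%) lay above both untreated arrays again, against 34.7% of all genes. Likewise 149 of the falling genes (91.4%) lay below both, against 34.0% of all genes. Adm read 8.04, 8.15 and 8.32 at the later times, within or below the range of its untreated values. Ccn2 read 9.22, 9.07 and 9.02, above both untreated arrays throughout. Tnfrsf18 read 9.71 at 120 min, above its untreated values, and 9.33 and 9.10 after that. Cxcl1, at 8.43, 8.40 and 8.38, lay between its 60 min and untreated levels. The difference between the windows was not tested for these genes, and their slopes had chosen them. The mean signal of the 31 genes of G2 and M phase was 8.92, 9.01 and 9.57 at these times, so that the 240 min array resembled untreated replicate 1 in them and the 120 min array replicate 2.

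**Figure D5:**
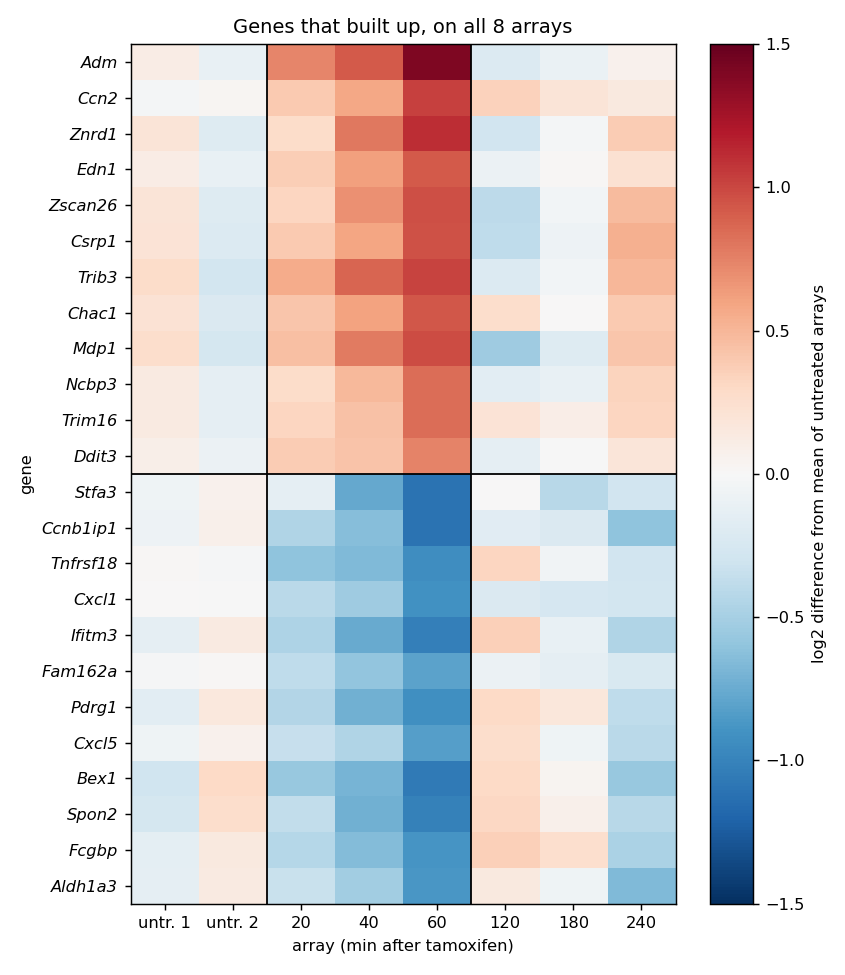
Difference from the mean of the untreated arrays (colour, log2, red higher and blue lower) for the 12 genes that built up furthest in each direction, on all 8 arrays in order of time. The 20, 40 and 60 min columns darken from left to right by the rule that chose the genes. At 120 and 180 min most rows are pale, and at 240 min many rows have the colour of the first hour again, in a lighter shade.

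Promoters were searched for 8 motifs on both strands, in windows of 250 bases before to 50 after each start, with overlapping matches counted once per promoter. Of 606 genes that built up upward 484 were in the table, with 618 promoters, and of 493 downward 394, with 529 promoters. The 9294 genes tested had 9632 promoters. The CArG box, which SRF binds, was in 2.27% of promoters of upward genes, in 0.378% of those of downward genes and in 1.35% of those of all genes tested. TGACTCA, an AP-1 site, was in 4.37%, 6.43% and 4.18%, and TGACGTCA in 3.40%, 2.65% and 2.90%. TGATGNAA, the amino acid response element that ATF4 and CHOP bind, was in 1.94%, 2.65% and 2.16%, and the NF-kB site in 9.71%, 12.1% and 10.4%. ACGTG, the core that hypoxia-inducible factors bind, was in 27.2%, 27.4% and 25.1%, and GGAATG in 10.8%, 12.5% and 12.4%. The full palindromic site of the estrogen receptor was in 0% of promoters of both sets and in 0.0208% of those of all genes tested. Over all 32851 promoters of the table it was in 0.0700%, and the CArG box in 1.63%. A match is a description of the letters and not of a bound site, and none of these differences was tested.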

How the data were processed

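Total RNA was labelled by the standard Affymetrix protocol, per the labels' protocols. The authors deposited a linear intensity for each of 22690 probe sets per array. How they summarised probes and scaled arrays was not given in the sources used here. Genes were named from the platform annotation: 20380 probe sets had 1 symbol, 691 several, 1555 none here, and 64 were controls; 20351 matched RefSeq (GRCm38.p6). Intensities were used as log2(intensity + 16) without rescaling, the dimmest 30% of probe sets were left out, and the brightest probe set stood for each gene. limma 3.58.1 (lmFit, eBayes) in R 4.3.3 fitted the windows and the line, with Benjamini-Hochberg adjusted p under 0.05. Both fits were tested on simulated data in which arrays scattered independently, without the cell cycle differences between arrays seen here, so that test does not cover them. Groups followed the titles. The members and gene lists were chosen with earlier results of these data known. Named genes were those with the smallest p in each fit (10 in each direction, or 5 where none passed), the 12 that built up furthest in each direction, the 5 farthest at 20 or 40 min, the 5 with the largest untreated gaps, and up to 4 members per list with those that built up. Alternatives changed the pseudocount, brightness limit, normalization, probe set choice, covariates, weights, arrays in the fit and each array left out.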

Additional observations from a re-analysis of the deposited data

Results flagged for a closer look

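Gnl3, a nucleolar protein, lay above both untreated arrays at 20, 40 and 60 min, with a window difference of 0.11 (log2), and below both at 120, 180 and 240 min, with one of -0.10. Tnfaip2 (0.11 and -0.13) and Lpl (0.18 and -0.15) had the same pattern, and Lama3, a laminin chain, the opposite one (-0.17 and 0.16). The further probe sets of Tnfaip2 (-0.03, -0.06 and 0.10 at 20, 40 and 60 min) and Lpl (0.12, 0.00 and -0.02) did not share it. These genes are listed because every first-hour array lay beyond both untreated arrays on 1 side and every later array beyond both on the opposite side. The difference between the windows was not tested.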

How the results depend on the processing

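Named genes that passed the trend kept the sign of their slope under every alternative. List medians of the slope did not all do so: that of G2 and M phase genes was 0.09 as reported, -0.16 without untreated replicate 2 and -0.16 with the S phase covariate, and that of sterol synthesis 0.03 and, with that covariate, -0.06. Among the other lists whose slope median changed sign under at least 1 alternative were those of S phase, NRF2, reference, keratin, ERK, EGF ligand, heat shock, interferon, xenobiotic and Myc genes. The count of genes in the pooled window, 0 as reported, was 579 with the mean of the G2 and M phase genes as a covariate, 13 with that of S phase, and 0 to 1 with 1 array left out (1 without untreated replicate 1). The trend's 376 genes became 993 with the G2 and M phase covariate, 117 with array weights, 22 with all 8 arrays in the fit, and 0 to 1078 with 1 array left out. Other normalizations, pseudocounts, brightness limits, the S phase covariate and each probe set on its own gave 333 to 536. The 1099 genes that built up became 1677 with each probe set counted, 66 at a distance of at least 0.5, and 1894 to 2377 with 1 time left out, where fewer conditions apply. They could not be counted without an untreated array, which leaves no gap. With each probe set counted, 4278, 5275 and 6391 lay past the gap at 20, 40 and 60 min. The causes of these changes were not tested. No paired analysis was possible because each time has 1 array and the labels carry no shared replicate numbers. Probe sets near the brightness limit have compressed differences.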
